A study of Mus musculus with 12 samples.

Results

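The transcription factor Nrf2 and the antioxidant genes linked to it were examined in the livers of male C57BL/6N mice at 3 ages by RNA-seq. The group held 9 genes, listed by name with earlier results of these data known, out of 53465 genes counted. They were Nfe2l2, which encodes Nrf2, its inhibitor Keap1, and the enzyme genes Nqo1, Gclc, Gclm, Hmox1, Txnrd1, Srxn1 and Gsr. Young mice were 3 months old, middle-aged mice 12 months and aged mice 18 months, with 4 livers per age and 1 animal per liver. No group carried a transgene, a deletion or a treatment. The question put to the data was how the messenger RNA levels of these genes differed between ages in whole liver tissue. How the livers were prepared is uncertain. The labels describe RNA extraction from young and old livers and not from middle-aged ones. The study made RNA-seq of its own from 4 young and 4 old livers, and described its RNA-seq of the 3 ages as coming from a public resource.

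Nrf2 is a leucine zipper transcription factor. In unstressed cells Keap1 holds it in the cytoplasm and, with the ubiquitin ligase Cul3, directs it to the proteasome, so that much of its control acts on the protein and not on its messenger RNA. Oxidants and electrophiles modify cysteines of Keap1, and the protein that escapes degradation enters the nucleus, pairs with small Maf proteins and binds antioxidant response elements in the promoters and enhancers of its target genes. In the liver these targets make glutathione, reduce thioredoxin and peroxiredoxins, break down haem and detoxify quinones and drugs.

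The sequence Nrf2 is known to bind was looked for in the promoters of these genes, in windows from 250 bases before to 50 bases after the start of transcription (RefSeq, GRCm38.p6). A window was held for 6 of the 9 genes, Nfe2l2, Keap1, Nqo1, Gclm, Txnrd1 and Srxn1, and these had 8 windows in all because Txnrd1 had 3 starts. The antioxidant response element core was searched as TGACNNNGC on both strands, and 12.4% of 32851 windows of the same length held a match. The Maf-type element TGANTCAGC was in 1.19% of windows, and the AP-1 core TGANTCA, which reads the same on both strands and lies within the Maf-type element, was in 7.81%. The stretches below show where these letters stood before the start of transcription in the genes whose windows held them, each with 10 flanking bases and with the matches in capitals. The core was found in the windows of Nfe2l2, Gclm, Srxn1 and 1 of the Txnrd1 starts. In Gclm, Txnrd1 and Srxn1 it read on the strand opposite to the gene, so that it appears in the Gclm and Txnrd1 stretches as its reverse complement. The Srxn1 core lay after the start and is outside the stretch shown, whose capitals mark the other elements.
Nfe2l2 (chr2:75704885-75704913, minus strand): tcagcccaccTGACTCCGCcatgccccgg
Gclm (chr3:122245413-122245441, plus strand): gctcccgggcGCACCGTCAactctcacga
Txnrd1 (chr10:82859104-82859132, plus strand): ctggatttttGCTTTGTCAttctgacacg
Srxn1 (chr2:152105412-152105497, plus strand): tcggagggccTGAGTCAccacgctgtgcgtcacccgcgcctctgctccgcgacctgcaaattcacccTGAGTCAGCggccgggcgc

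Srxn1 was the gene with most matches, 4 in its window. It carried an AP-1 core at -102 to -96, and at -45 to -37 a Maf-type element that itself holds the other AP-1 core, counted from the start of transcription. Its only match to the antioxidant response element core as searched, TGACNNNGC, lay at 28 to 36 bases after the start. The Maf-type match, TGAGTCAGC, differs from that core only in holding G where the core has C. A core with G there was not searched. The windows of Keap1 and Nqo1 held none of these letters. A match is only a run of letters and was not tested as a binding site.

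In brief, Nfe2l2 was the gene of the group that differed most from young livers. Its rise passed the test in aged livers. The Nfe2l2 mean of middle-aged livers lay in between and was not called against either other age. The level was 331 ± 73.6 normalised counts (SD, n = 4) in young livers and 530 ± 74.0 (SD, n = 4) in aged livers, a fold change of 1.60. Gclm, the modifier subunit of the enzyme that makes glutathione's precursor, rose in middle-aged livers by a small and even amount. Both calls were lost when certain single livers were left out, and in edgeR, an alternative test, with low genes filtered out. None of the other 7 genes passed the test between any 2 ages, and Keap1, Txnrd1 and Srxn1 had fold changes within a narrow range around 1. A normalised count is a read count divided by a size factor that removes differences in sequencing depth. Genes were called changed at an adjusted p under 0.05 in DESeq2, which tests the log2 ratio of counts between ages and adjusts over all genes tested.

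The libraries held 8124312 to 10527159 gene counts. Between 16361 and 17563 genes were detected in 10 of them, whereas young replicate 3 had 22284 and middle-aged replicate 1 had 19982. Mitochondrial transcripts took 19.2% of gene counts in young replicate 2 and between 5.48% and 10.7% in the others. Spike-in transcripts, synthetic RNA added to the samples, split the libraries by their composition into replicates 1 and 2 of every age and replicates 3 and 4 of every age (spike-in levels correlated at 0.997 or more among libraries of a set, and at 0.925 or less across sets). This split lies across the ages, and values within each set are given where they bear on a gene. All 6 markers of hepatocytes, the main liver cell, were present in every liver. None passed between aged and young livers in DESeq2, where 1 had an unadjusted p under 0.05, or in edgeR with filtering; Alb, the most abundant, had a log2 difference of 0.31 (DESeq2 adjusted p = 0.084), and the other 5 lay between -0.26 (Apoa1) and -0.09 (Ttr), with a list median of -0.13. In whole tissue, fewer cells of a type and less RNA per cell cannot be told apart.

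**Figure D1:**
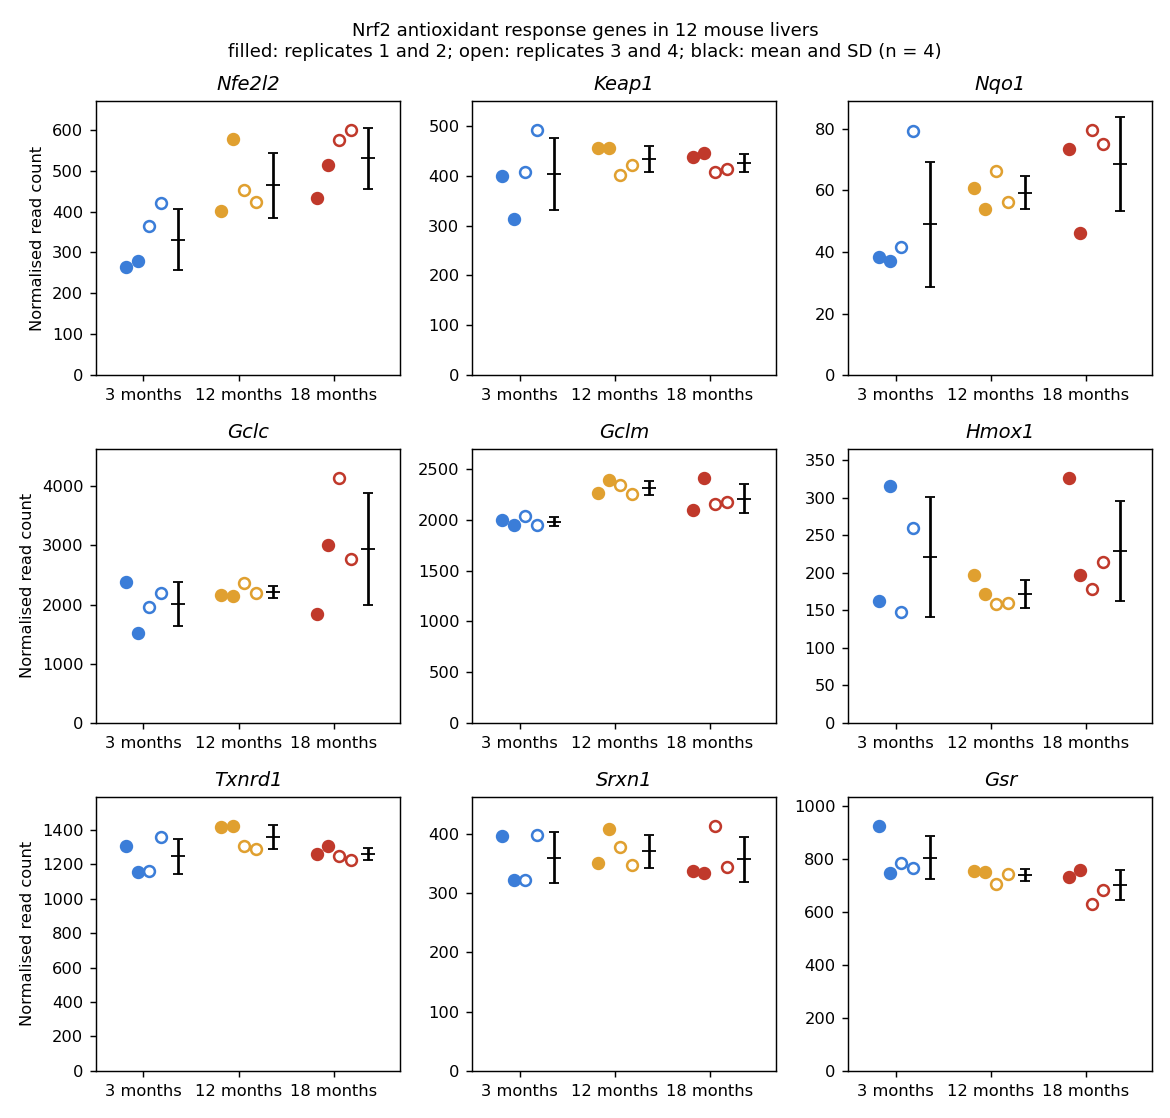
Normalised read counts of the 9 genes in each liver at 3, 12 and 18 months (vertical axes from 0). Each point is 1 liver, filled for replicates 1 and 2 and open for replicates 3 and 4, and the black bar is the mean with its SD (n = 4). All 4 aged livers lie above all 4 young livers for Nfe2l2 and Gclm, whereas the ages overlap for Keap1, Hmox1, Txnrd1, Srxn1 and Gsr.

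The levels of the 9 genes were compared with each other per kilobase of exon, because a longer transcript yields more reads. Averaged over the 12 livers, the catalytic subunit gene Gclc stood highest at 635 normalised counts per kb, followed by Gclm at 345 and Gsr at 272. Txnrd1 at 182 per kb came next. Srxn1 at 129, Hmox1 at 118 and Nfe2l2 at 116 per kb lay closer to each other than the spread of Hmox1 among young livers (SD 45.7 per kb). Keap1 followed at 89.6 and Nqo1, the quinone reductase, was lowest at 37.9 per kb. Nfe2l2 and Keap1 had levels of 87.3 ± 19.4 and 85.9 ± 15.5 per kb (SD, n = 4) in young livers, which lay within their spread, and of 139.6 ± 19.5 and 90.7 ± 3.82 in aged livers.

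Nfe2l2 lies on chromosome 2 (chr2:75675513-75704641, minus strand, GRCm38). Normalised counts of Nfe2l2 in young livers 1 to 4 were 263.2, 278.9, 363.8 and 419.8. In middle-aged livers they were 401.1, 578.2, 453.0 and 423.9, and in aged livers 432.5, 514.4, 574.2 and 598.9. The lowest aged liver lay just above the highest young liver, so the groups did not overlap, and the middle-aged livers reached into both. The difference between aged and young livers was 0.68 on the log2 scale (SE 0.17, 95% interval 0.34 to 1.02, DESeq2 adjusted p = 0.00693). Nfe2l2 was the only one of the 9 genes called between these ages, against 3.58% of the 13527 genes tested in either direction. Nfe2l2 and Gclm were the genes of the group whose aged livers all lay above the young ones, an arrangement seen in 3.84% of genes tested. None of the 9 had all aged livers below all young ones, an arrangement seen in 3.69%.

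The middle-aged livers were intermediate in mean (464 ± 79.0, SD, n = 4), with a log2 difference from young livers of 0.48 (SE 0.17, 95% interval 0.14 to 0.83, DESeq2 adjusted p = 0.0679). This difference passed in edgeR without a filter (0.505, adjusted p = 0.0037) but not with one (0.48, adjusted p = 0.118). It passed with the spike-in set as covariate (0.509, DESeq2 adjusted p = 0.038). Of 12 fits that left out 1 liver it passed in 2, without young replicate 4 (0.622, DESeq2 adjusted p = 0.0143) or aged replicate 1 (0.485, 0.0403). Between aged and middle-aged livers the log2 difference was 0.19, with an interval from -0.15 to 0.53. Across the 3 ages in one likelihood ratio test, Nfe2l2 (DESeq2 adjusted p = 0.0118) and Gclm (0.0144) were called, against 6.96% of all genes tested. The call for aged against young livers depended on single livers and on the tool. It was lost without young replicate 2 (log2 difference 0.60, DESeq2 adjusted p = 0.0535), without aged replicate 3 (0.64, 0.051) or without aged replicate 4 (0.61, 0.0512), and in edgeR with low genes filtered out (0.68, adjusted p = 0.0577). Without young replicate 3 and middle-aged replicate 1, the libraries with most genes detected, the difference was 0.72 (DESeq2 adjusted p = 0.016).

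Within the spike-in sets the young livers differed, with means of 271 for replicates 1 and 2 and 391.8 for replicates 3 and 4. The aged against young log2 difference was 0.81 within the first set (DESeq2 adjusted p = 0.076) and 0.58 within the second (0.0387). For middle-aged against young livers it was 0.86 within the first set (DESeq2 adjusted p = 0.0323) and 0.15 within the second (0.818). For middle-aged against young livers the difference between the sets was not itself called for Nfe2l2 (interaction -0.69, SE 0.29, DESeq2 unadjusted p = 0.016, adjusted p = 0.675). For aged against young livers it was smaller and not called either (interaction -0.225, SE 0.286, DESeq2 unadjusted p = 0.433).

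Keap1 (chr9:21229730-21239361, minus strand) is the sensor that marks Nrf2 for degradation. Keap1 had normalised counts of 400.2, 313.3, 407.6 and 491.1 in young livers, 455.7, 455.2, 400.9 and 421.9 in middle-aged livers, and 436.6, 445.0, 408.1 and 413.0 in aged livers. The spread was widest among young livers, which spanned all values of the other ages. The log2 difference between aged and young livers was 0.07 (95% interval -0.17 to 0.32, DESeq2 adjusted p = 0.85), so that a change beyond 1.25-fold lay outside the interval. An antisense gene, Gm16754, overlaps Keap1, and whether the counting used strand is not given in the sources used here.

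Nrf2 and Keap1 act on each other, and the ratio of their transcripts within a liver was described as well. The ratio of Nfe2l2 to Keap1 counts was 0.658, 0.89, 0.892 and 0.855 in young livers. It was 0.88, 1.27, 1.13 and 1 in middle-aged livers and 0.991, 1.16, 1.41 and 1.45 in aged livers. Every aged liver had a higher ratio than every young liver. These are ratios of messenger RNA and no protein was measured.

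**Figure D2:**
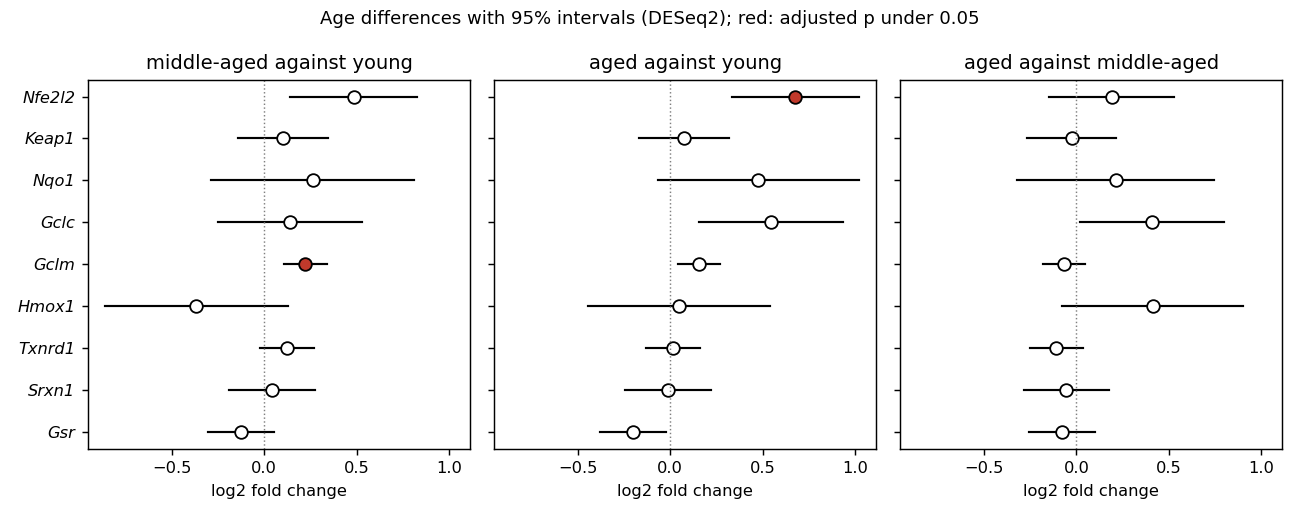
Log2 fold changes of the 9 genes for each pair of ages from one DESeq2 fit of 12 livers, with 95% intervals (lines). Red points have an adjusted p under 0.05, which are Gclm for middle-aged against young and Nfe2l2 for aged against young; white points did not pass.

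Glutamate-cysteine ligase makes the precursor of glutathione and is built from a catalytic subunit, Gclc, and a modifier subunit, Gclm, that raises its efficiency. Gclm (chr3:122245557-122270732, plus strand) had 1999.8, 1953.7, 2036.8 and 1946.7 normalised counts in young livers. It had 2267.8, 2394.4, 2343.5 and 2254.0 in middle-aged livers and 2095.5, 2412.0, 2154.2 and 2181.1 in aged livers. Young livers stood within a very narrow range (1984 ± 42.2, SD, n = 4), and every middle-aged and every aged liver lay above them. The log2 difference between middle-aged and young livers was 0.22 (SE 0.06, 95% interval 0.11 to 0.34), a fold change of 1.17 (DESeq2 adjusted p = 0.00668). Gclm was the only one of the 9 genes called here, against 6.41% of the 11333 genes tested, and groups lying wholly above the young ones were seen in 7.99% of genes. The opposite arrangement, seen in 7.96% of genes, was found in none of the 9.

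For aged against young livers the Gclm difference was 0.16 (SE 0.06, 95% interval 0.04 to 0.27), which did not pass (DESeq2 adjusted p = 0.122). The middle-aged call was lost without young replicate 3 (0.24, DESeq2 adjusted p = 0.0535), middle-aged replicate 2 (0.20, 0.067) or middle-aged replicate 3 (0.22, 0.0529), without both libraries with most genes detected (0.24 with adjusted p = 0.118), and in edgeR with low genes filtered out (0.22, adjusted p = 0.118). The aged difference passed without aged replicate 1 (0.18, DESeq2 adjusted p = 0.037). Within the spike-in sets the middle-aged difference was 0.24 for replicates 1 and 2 and 0.20 for replicates 3 and 4, and neither passed (DESeq2 adjusted p = 0.89 and 0.48). It did not pass in edgeR without a filter either (adjusted p = 0.371). Genes of the circadian clock, which follow the time of day at collection, moved between the same ages. Of 11 tested, 4 rose and 1 fell in middle-aged against young livers, beside 3.51% higher and 2.9% lower of all genes tested. For aged against young livers none of 12 tested passed in DESeq2, where 7 had an unadjusted p under 0.05. The summed level of the 12 clock genes was 3603 to 4556 in middle-aged, 2766 to 3023 in young and 2364 to 3213 in aged livers. Such a sum can hide opposite moves. For aged against young livers the log2 differences ran from -1.485 (Ciart) to 1.701 (Npas2). The part of the clock genes in the Gclm and Nfe2l2 results was not tested. Gclm is overlapped by Gm17494 on the other strand and by Gm6061.

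Gclc (chr9:77754535-77794485, plus strand) was the most variable gene among aged livers. Gclc counts, normalised, were 2379.8, 1520.7, 1961.0 and 2191.7 in young livers and 2161.5, 2147.5, 2369.1 and 2191.9 in middle-aged livers. In aged livers they were 1839.5, 3014.0, 4136.2 and 2776.5. Aged livers 2, 3 and 4 lay above every young and middle-aged liver, and aged liver 1 lay below all middle-aged livers and within the young range. The log2 difference between aged and young livers was 0.55 (SE 0.20, 95% interval 0.16 to 0.94, DESeq2 adjusted p = 0.101), and between aged and middle-aged livers 0.41 (95% interval 0.02 to 0.80, DESeq2 adjusted p = 0.46). Without aged replicate 1 these were 0.72 (DESeq2 adjusted p = 0.000472) and 0.58 (0.0251), and without aged replicate 3 they were 0.34 and 0.20. On all livers, edgeR without a filter called both differences (0.57, adjusted p = 0.0002, and 0.41, 0.0438), whereas edgeR with filtering called neither.

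The Gclc difference between aged and young livers was 0.32 within replicates 1 and 2, the set that holds aged liver 1, and 0.73 within replicates 3 and 4 (DESeq2 adjusted p = 0.000539). The difference between the sets was not called (interaction 0.42, SE 0.35, DESeq2 adjusted p = 0.98). The ratio of Gclc to Gclm within a liver was 1.01 ± 0.184 (SD, n = 4) in young livers, 0.958 ± 0.0475 in middle-aged livers and 1.33 ± 0.433 in aged livers. Among aged livers it ranged from 0.878 in liver 1 to 1.92 in liver 3. The ratio thus varied among aged livers and, less widely, among young ones (0.778 to 1.19), while middle-aged livers lay close together. The difference in spread was not tested.

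Gsr (chr8:33652523-33698163, plus strand) returns oxidised glutathione to its reduced form. The livers held normalised Gsr counts of 924.5, 746.3, 783.2 and 764.4 in young livers, 753.6, 752.4, 705.5 and 742.7 in middle-aged livers and 731.6, 760.0, 630.1 and 681.2 in aged livers. Gsr was the gene with the lowest aged-to-young ratio of the 9, with a log2 difference of -0.20 (SE 0.09, 95% interval -0.38 to -0.02), but this did not pass (DESeq2 adjusted p = 0.234). The difference was -0.13 without young replicate 1, the highest liver.

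Txnrd1 (chr10:82833951-82897712, plus strand) encodes the cytosolic enzyme that keeps thioredoxin reduced. Txnrd1 had normalised counts of 1307.7, 1157.7, 1160.0 and 1358.0 in young livers, 1414.9, 1423.0, 1307.7 and 1287.9 in middle-aged livers and 1260.5, 1305.2, 1247.9 and 1227.3 in aged livers. The log2 difference between aged and young livers was 0.01 (SE 0.07, 95% interval -0.13 to 0.16), the narrowest interval of the group after Gclm. In middle-aged livers it was 0.12 (95% interval -0.02 to 0.27, DESeq2 adjusted p = 0.33). Txnrd1 is overlapped by Eid3 and by 2 genes on the other strand.

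Srxn1 (chr2:152105516-152111376, plus strand) encodes sulfiredoxin, which repairs overoxidised peroxiredoxins, and its promoter window held the most element matches. Its normalised counts were 397.0, 322.2, 322.3 and 397.3 in young livers, 350.5, 407.6, 377.9 and 346.8 in middle-aged livers and 337.2, 333.3, 413.4 and 344.2 in aged livers. The aged livers lay together apart from liver 3, and the 3 ages overlapped throughout. The log2 difference between aged and young livers was -0.01 (95% interval -0.24 to 0.22, DESeq2 adjusted p = 0.979). Its sign turned with edgeR's TMM scaling factors (0.009).

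Nqo1 (chr8:107388225-107403206, minus strand), a quinone reductase widely used as a readout of Nrf2 activity, was the lowest of the 9 genes. Normalised Nqo1 counts were 38.2, 36.9, 41.5 and 79.1 in young livers, 60.6, 53.9, 66.2 and 56.1 in middle-aged livers and 73.3, 46.2, 79.5 and 75.1 in aged livers. Young livers 1 to 3 lay below every liver of the other ages, and young liver 4 matched the highest aged liver. Over all livers the log2 difference between aged and young was 0.48 (SE 0.28, 95% interval -0.07 to 1.02, DESeq2 adjusted p = 0.414). Without young replicate 4 it was 0.82 (DESeq2 adjusted p = 0.0436). The raw counts behind these values were 29 to 91 reads, the lowest of the 9 genes.

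Hmox1 (chr8:75093621-75100589, plus strand), the inducible haem oxygenase, is also expressed by the liver's macrophages, the Kupffer cells, which take up spent red cells. Its normalised counts were 162.4, 315.9, 148.1 and 259.7 in young livers, 197.6, 171.5, 158.9 and 159.4 in middle-aged livers and 326.2, 196.5, 178.3 and 214.5 in aged livers. The spread within young and aged livers was larger than any difference between ages. The log2 difference was 0.05 for aged against young livers (95% interval -0.44 to 0.54), -0.37 for middle-aged against young (-0.86 to 0.13) and 0.41 for aged against middle-aged (-0.08 to 0.90), with DESeq2 adjusted p-values of 0.96, 0.411 and 0.639 in that order.

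The 2 livers with most Hmox1, aged liver 1 and young liver 2, were also those with the highest summed level of 12 macrophage markers (6926 and 7405). The other 10 livers had marker sums from 3629 to 5546, and Hmox1 up to 259.7. None of the 12 markers was at 0 in any liver. By age the sums were 4102 to 7405 in young, 3629 to 4897 in middle-aged and 4232 to 6926 in aged livers. Of the 12 markers, 1, Marco, rose in aged against young livers (2.46, DESeq2 adjusted p = 0.0178). No other marker passed there, and the median log2 difference of the list was -0.085. Marco had 790.8, 104, 96.1 and 261 normalised counts in aged livers 1 to 4, and 36.7 to 79.1 in young livers. It did not pass in edgeR with filtering (adjusted p = 0.075). Young liver 2 was also highest for the summed sinusoidal endothelial markers (2220) and erythroid markers (86366), whereas aged liver 1 was not (1502 and 21230). The part of macrophages in the Hmox1 levels was not tested. Red cell genes moved with age too: all 5 erythroid markers were lower in every aged liver than in any young one, and 2 passed in DESeq2. Of all genes tested, 3.69% lay wholly lower in aged livers and 1.71% were called lower. None of the 5 erythroid markers passed in edgeR with filtering. Their sum was 22967 to 86366 in young, 12815 to 49844 in middle-aged and 9671 to 21230 in aged livers.

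**Figure D3:**
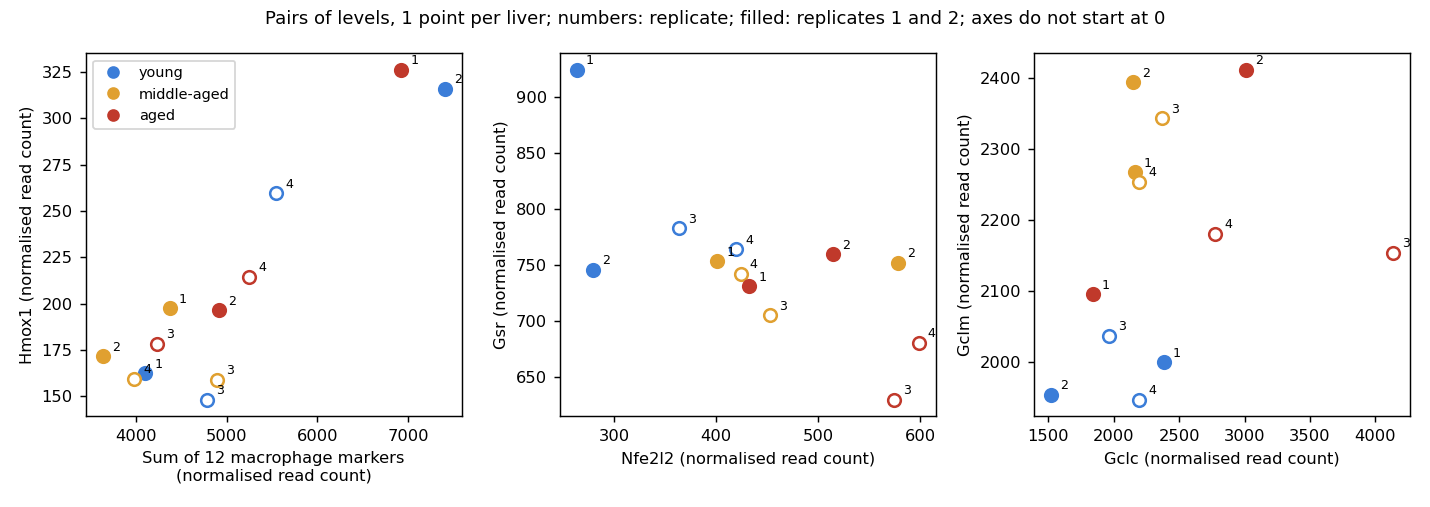
Pairs of levels in each of 12 livers (normalised read counts, axes not from 0), coloured by age, numbered by replicate and filled for replicates 1 and 2. Left, Hmox1 against the sum of 12 macrophage markers, where aged liver 1 (326.2) and young liver 2 (315.9) stand at upper right; middle, Gsr against Nfe2l2; right, Gclm against Gclc, where the aged livers spread along the Gclc axis from 1839.5 to 4136.2.

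How the genes varied together was described over the 12 livers with the logarithm of normalised counts, for all 36 pairs. The median correlation was 0.217, and 24 of the 36 pairs were positive. No pair passed after adjustment over the 36 pairs, with 6 at an unadjusted permutation p under 0.05. The most positive pair was Keap1 and Txnrd1 (Pearson r = 0.725, permutation p = 0.00472, adjusted p = 0.0778; Spearman rho = 0.62, permutation p = 0.0354, adjusted p = 0.311). Its r was 0.661 without the livers farthest from the Keap1 median, 0.851 and 0.638 within the spike-in sets, and 0.761 after the mean of each age was taken out.

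Nfe2l2 and Gsr were the most negative pair (Pearson r = -0.723, permutation p = 0.00648, adjusted p = 0.0778; Spearman rho = -0.657, permutation p = 0.0239, adjusted p = 0.311). Their r was -0.638 without the livers farthest from the Nfe2l2 median, -0.58 and -0.908 within the sets, and -0.455 after the mean of each age was taken out. Nfe2l2 and Nqo1 had r = 0.686 (permutation p = 0.0139, adjusted p = 0.125) and Spearman rho = 0.58 (permutation p = 0.0518, adjusted p = 0.311). Their r was 0.318 without the livers farthest from the Nfe2l2 median, a step that also narrows the range of Nfe2l2. It was 0.607 and 0.738 within the sets, and 0.477 after the mean of each age was taken out. All 12 livers share the age groups, and pairs may move with depth as well.

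For 8 of the genes the transcript with the most similar pattern is given. It was sought among 8887 genes averaging 50 or more normalised counts, as the highest Pearson correlation over the 12 livers. It was Nectin1 for Nfe2l2 (r = 0.934), Rubcn for Gclm (0.944) and Ddx17 for Gclc (0.938). For Nqo1 it was Sod3, which encodes extracellular superoxide dismutase (0.914), and for Hmox1 it was Rsrp1 (0.935). Keap1 was closest to Cyp2c50 (0.883), Srxn1 to Etf1 (0.902) and Gsr to Slco1a1 (0.89). These are the maxima of 8887 values each and are given without a test.

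Beyond the 9 genes, 72 genes of linked steps were counted in 6 lists. Of 70 tested between aged and young livers, 3 rose and 1 fell, and of 69 tested between middle-aged and young livers, 3 rose and 2 fell. None of 66 passed between aged and middle-aged livers in DESeq2, where 7 had an unadjusted p under 0.05 and edgeR called none. The background was 1.87% higher and 1.71% lower for aged against young, 3.51% higher and 2.9% lower for middle-aged against young, and 1.14% in either direction for aged against middle-aged.

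Among 13 genes of Nrf2 control and its partners, 1 rose in aged livers. This was Nfe2l1, which encodes the related factor Nrf1 that shares the small Maf partners. Its normalised counts were 869.3, 877.5, 959.8 and 922.6 in young livers, 1055.4, 1154.6, 1056.1 and 1003.2 in middle-aged livers and 1277.5, 1256.1, 1248.8 and 1047.7 in aged livers. Every middle-aged and aged liver lay above every young liver. The aged against young log2 difference was 0.41 (SE 0.08, DESeq2 adjusted p = 0.000218), edgeR with filtering called it as well (adjusted p = 0.0314), and it was called in each of the 12 fits that left out 1 liver. With 2 livers per age it was not called within either spike-in set, at 0.54 for replicates 1 and 2 (DESeq2 adjusted p = 0.133) and 0.28 for replicates 3 and 4 (0.414). The median of the list was -0.14, against 0 over all genes tested. Bach1, a repressor that competes with Nrf2 for the same elements, was singled out after its values were seen: it had 207.1 to 214.5 normalised counts in aged, 202.6 to 570.0 in young and 271.1 to 432.0 in middle-aged livers, and its differences did not pass (aged against young -0.68, DESeq2 adjusted p = 0.128; aged against middle-aged -0.76, adjusted p = 0.14).

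Of 12 genes of glutathione synthesis and use, 10 were tested for aged and for middle-aged against young livers. Abcc2, which exports glutathione conjugates into bile, rose in middle-aged livers with 3334.1, 4267.3, 3891.4 and 4241.5 normalised counts against 3294.8, 2175.3, 2379.2 and 2870.2 in young livers. The groups did not overlap (log2 difference 0.55, SE 0.16, DESeq2 adjusted p = 0.0121), but the call was lost without young replicate 2 (0.47, adjusted p = 0.0753), young replicate 3 (0.50, 0.0701), middle-aged replicate 2 (0.51, 0.0613) or middle-aged replicate 4 (0.52, 0.0556). It was also lost without both libraries with most genes detected (0.57, 0.062), in edgeR with low genes filtered out (0.55, adjusted p = 0.0676) and within replicates 1 and 2 (0.47, DESeq2 adjusted p = 0.534), and passed within replicates 3 and 4 (0.62, 0.000582). No gene of this list passed in aged against young livers in DESeq2, where 2 had an unadjusted p under 0.05 and edgeR called none. The list's median was -0.21 in aged and -0.19 in middle-aged livers.

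Among 13 genes of the thioredoxin and peroxiredoxin list, 1 fell in aged and 2 fell in middle-aged livers. Prdx1, a peroxide-reducing peroxiredoxin, had 10544.2 to 12361.5 normalised counts in young livers, 8843.8 to 9286.5 in middle-aged and 7830.1 to 10044.8 in aged livers, with no overlap between young livers and either older group. It fell by 0.34 on the log2 scale in aged (SE 0.09, DESeq2 adjusted p = 0.00664) and by 0.30 in middle-aged livers (SE 0.09, adjusted p = 0.0141). Txn1, thioredoxin itself, fell by 0.37 in middle-aged livers (SE 0.12, DESeq2 adjusted p = 0.0292). Young replicate 2, which had 19.2% mitochondrial counts, was the highest liver for both genes (12361.5 and 2433.8). Without it the Prdx1 differences were -0.28 (DESeq2 adjusted p = 0.0515) and -0.25 (0.0886), and the Txn1 difference was -0.26 (0.133). Calls were also lost without aged replicate 2 for Prdx1 in aged livers (-0.30, adjusted p = 0.0539), without any 1 of middle-aged replicates 2, 3 and 4 for Prdx1 in middle-aged livers (adjusted p 0.0537 to 0.0704), and without any 1 middle-aged liver for Txn1 (0.0716 to 0.0922). In edgeR with low genes filtered out, none of these differences passed (adjusted p = 0.0996 and 0.105 for Prdx1 and 0.091 for Txn1), and the middle-aged calls of Prdx1 and Txn1 were lost without both libraries with most genes detected (DESeq2 adjusted p = 0.0885 and 0.106). A fit of the 2 ages alone lost the Prdx1 call in aged livers (adjusted p = 0.0724). Within replicates 1 and 2 and within replicates 3 and 4, the Prdx1 differences were -0.33 and -0.35 in aged livers (DESeq2 adjusted p = 0.763 and 0.0449) and -0.33 and -0.29 in middle-aged livers (0.624 and 0.138), and the Txn1 differences in middle-aged livers were -0.49 and -0.25 (0.31 and 0.398).

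The largest list, 20 conjugation and reduction enzymes and transporters linked to Nrf2, had the highest medians, 0.16 in aged and 0.20 in middle-aged livers. Abcc3, which exports conjugates into blood, had 1002.0, 635.5, 984.6 and 1572.8 normalised counts in young livers, 1844.8, 2289.4, 1601.8 and 1702.8 in middle-aged livers and 1592.7, 1998.7, 2163.8 and 1729.7 in aged livers. It rose by a log2 difference of 0.83 in aged livers (SE 0.22, DESeq2 adjusted p = 0.00745) and of 0.83 in middle-aged livers (SE 0.22, adjusted p = 0.00607). The aged call was lost without aged replicate 3 (0.76, DESeq2 adjusted p = 0.0551), the middle-aged call without both libraries with most genes detected (0.80, 0.0791), and both in edgeR with low genes filtered out (adjusted p = 0.0691 and 0.0582). Within replicates 1 and 2 the Abcc3 differences were 1.33 in middle-aged and 1.14 in aged livers (DESeq2 adjusted p = 3.88e-06 and 0.00034). Within replicates 3 and 4 they were 0.36 and 0.60 (0.397 and 0.0371), so that the middle-aged call was lost there, and whether the sets differed was not tested. Gsta2, a glutathione transferase, had 401.2, 313.3, 497.6 and 543.8 in young livers, 778.4, 814.3, 802.6 and 615.4 in middle-aged livers and 751.7, 730.1, 547.9 and 588.2 in aged livers.

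Gsta2 differences were 0.78 in middle-aged (SE 0.17, DESeq2 adjusted p = 0.000716) and 0.57 in aged livers (SE 0.17, adjusted p = 0.032). The aged call was lost without young replicate 1 (0.53, adjusted p = 0.101), young replicate 2 (0.44, 0.143), aged replicate 1 (0.50, 0.0563) or aged replicate 2 (0.52, 0.133). It was also lost in a fit of the 2 ages alone (DESeq2 adjusted p = 0.0811), without both libraries with most genes detected (0.0519) and in edgeR with low genes filtered out (0.0978). Within replicates 1 and 2 the Gsta2 differences were 1.16 in middle-aged and 1.05 in aged livers (DESeq2 adjusted p = 8.96e-06 and 0.000133). Within replicates 3 and 4 they were 0.44 and 0.12, and neither passed (0.212 and 0.931). Whether the sets differed was not tested for Gsta2. The remaining 18 genes of this list did not pass in either comparison with young livers where they were tested. Among these, Gstp1 was singled out after its values were seen. It had 7928.3 to 13908.9 normalised counts in young, 3612.1 to 6513 in middle-aged and 1647.3 to 7654.2 in aged livers. All middle-aged and all aged livers lay below the young ones. Its log2 differences were the lowest of the list and did not pass (aged -1.475, DESeq2 adjusted p = 0.0569, and middle-aged -1.108, adjusted p = 0.146). Gsta2 belongs to a family with near-identical copies, and the counting could split reads between them. None of the 8 NADPH supply genes and none of the 6 haem and iron disposal genes passed between any 2 ages in DESeq2 or in edgeR with filtering. At an unadjusted p under 0.05 in DESeq2 there were 0, 1 and 1 NADPH genes and 2, 1 and 0 haem and iron genes, for the aged and the middle-aged livers against the young ones and for the older pair of ages, in that order.

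**Figure D4:**
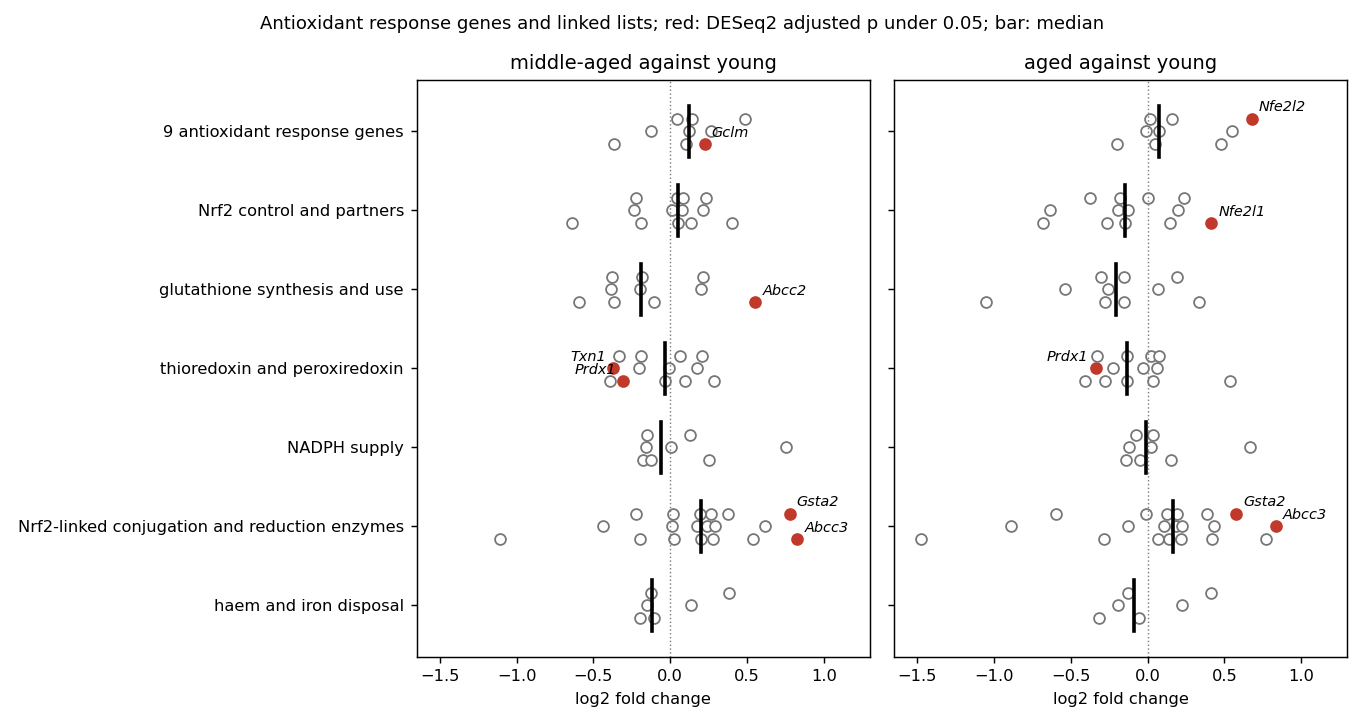
Log2 fold changes of the 9 antioxidant response genes and of the 6 linked lists in middle-aged (left) and aged (right) against young livers, 1 point per tested gene, red and named where the DESeq2 adjusted p was under 0.05, with the list median as a black bar. Medians lie between -0.21 and 0.20, and the called genes outside the 9 are Nfe2l1, Abcc2, Txn1, Prdx1, Gsta2 and Abcc3.

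Over the 9 genes the median log2 difference was 0.07 for aged against young, 0.12 for middle-aged against young and -0.03 for aged against middle-aged livers, beside 0, 0.007 and 0.005 over all genes tested. No gene of the 9 passed between aged and middle-aged livers in DESeq2, where 1 had an unadjusted p under 0.05, and edgeR with filtering called none; the background for this comparison was 1.14% of 10236 genes. The 9 genes overlapped between these ages, whereas 3.26% of genes lay wholly higher and 3.28% wholly lower in aged livers. At an unadjusted p under 0.05 there were 4 genes for aged against young livers, Nfe2l2, Gclc, Gclm and Gsr, and 2 for middle-aged against young livers, Nfe2l2 and Gclm. With edgeR and filtering, none of the 9 passed in any pair of ages, whereas of all genes 1.42% passed for aged against young, 2.31% for middle-aged against young and 0.107% between both older ages.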

How the data were processed

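The authors deposited raw read counts per gene as whole numbers, without normalisation, for 12 livers (53465 genes and 92 spike-in transcripts). The submitters' processing notes name STAR 2.5.2b, SAMtools 1.9, featureCounts, R 3.6.3, edgeR 3.28.1, DESeq2 1.26.0 and the builds mm10 and GRCm38, without saying which role each had. Symbols and positions came from GENCODE M21 (53360 identifiers matched). The 28449 genes with at least 1 count were tested here with DESeq2 1.42.0 in R 4.3.3, in 1 fit of 12 livers with age as the term, Wald tests for pairs of ages and a likelihood ratio test over 3 ages, Benjamini-Hochberg adjusted. Spike-ins were left out of the gene tests and not used for scaling. edgeR 4.0.16 quasi-likelihood tests were alternatives; the version with low genes filtered out was chosen after seeing the data. Scripts were tested on simulated data.

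The 9 genes and the lists were chosen with earlier results of these data known. All 9 were described; of each linked list, up to 2 genes called higher and 2 called lower per pair of ages with the largest change and a mean normalised count of at least 50 were named. Correlations used log2(normalised count + 1) and 100000 permutations, two-sided. Intervals are 95% Wald intervals. The labels give 1 animal per sample. The series text counts 3 replicates per age, but 4 were given per age and all were used. Same-numbered livers showed little shared deviation (r -0.30 to 0.16 over 12 pairs, 2 above 0.1), and the main fit did not pair them. Spike-in composition did follow the replicate numbers, and a link between same-numbered livers through handling was not tested. The transcript most similar to Txnrd1 is not reported here.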

Additional observations from a re-analysis of the deposited data

Results flagged for a closer look

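In young livers, Nqo1 in replicate 4 (79.1 normalised counts) stood apart from the other 3 (36.9 to 41.5), with the gap taking 0.892 of the whole range of the group, above Dixon's critical value for 4 samples. In aged livers, Srxn1 in replicate 3 (413.4) stood apart from the others (333.3 to 344.2), with the gap at 0.864 of the range. These were 2 of 27 groups of 4 livers tested, and chance gives about 1 in 20, or 1.35 groups. Spike-in transcripts, which enter no comparison, took at least 1.59% of counts in every library and up to 10.6%, in young replicate 2.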

How the results depend on the processing

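Counts of calls moved with the tool and the samples. Genes called for aged against young were 484, with 880 in edgeR without a filter, 172 in edgeR with a filter, 289 in a fit of the 2 ages, 139 within replicates 1 and 2 and 301 without both libraries with most genes detected. For middle-aged against young (727) they were 1154, 280, 1166, 251 and 272 in that order, and 306 within replicates 3 and 4. For aged against middle-aged (117) they were 446 and 13 in edgeR without and with a filter, 29 and 306 within the sets and 61 without both libraries. Across 3 ages (865) they were 1494, 234, 270 within replicates 1 and 2 and 472 without both libraries.

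With the replicate number as a block, 385 genes were called for middle-aged against young, 426 for aged against middle-aged and 451 across ages, and the linked genes called for middle-aged against young were 3. Of the 9 genes, the block called 0 for middle-aged against young and 1 across 3 ages; Gclm was then 0.22 (DESeq2 adjusted p = 0.134). Of the named linked genes, the block lost Gsta2 in aged livers (adjusted p = 0.0857) and Prdx1 and Txn1 in middle-aged livers (0.0672 and 0.0959).

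Of the 9 genes, 2 were called for aged against young in edgeR without a filter and within replicates 3 and 4, and 0 in edgeR with a filter and within replicates 1 and 2. For middle-aged against young, 2 were called with the spike-in set as covariate, and 0 in edgeR with a filter, within replicates 3 and 4 and without both libraries. For aged against middle-aged, 1 was called in edgeR without a filter and within replicates 3 and 4. Across ages, 0 were called in edgeR with a filter and 1 within either set or without both libraries. Of the linked genes (4, 5 and 0 called), edgeR without a filter called 10, 9 and 3, edgeR with a filter 1, 1 and 0, fits of 2 ages 2, 13 and 1, replicates 1 and 2 alone 2, 3 and 1, replicates 3 and 4 alone 11, 3 and 4, and 1 was called for middle-aged against young without both libraries.

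Leaving out 1 liver gave 237 to 1291 genes for aged against young, 345 to 1096 for middle-aged against young, 40 to 198 for aged against middle-aged and 503 to 1637 across ages. Of the 9 genes it gave 0 to 3, 0 to 2, 0 to 1 and 0 to 3, and of the linked genes 2 to 20, 2 to 10 and 0 to 1. The highest count came without aged replicate 1 in all 4 gene counts.

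Signs turned only for small differences that had not passed. For aged against young, within replicates 3 and 4, Keap1 was -0.135, Hmox1 -0.062, Txnrd1 -0.029 and Srxn1 0.069; without both libraries Hmox1 was -0.102 and Txnrd1 -0.017; and Srxn1 was 0.009 in edgeR without a filter and with TMM scaling. For middle-aged against young within replicates 3 and 4, Keap1 was -0.139 and Srxn1 -0.002. For aged against middle-aged, Nfe2l2 was -0.046 within replicates 1 and 2, and Keap1 0.004 and Srxn1 0.071 within replicates 3 and 4. Leaving out 1 liver, the ranges that crossed 0 for aged against young were -0.028 to 0.185 for Keap1, -0.172 to 0.263 for Hmox1, -0.019 to 0.06 for Txnrd1 and -0.093 to 0.04 for Srxn1; for middle-aged against young -0.001 to 0.212 for Keap1 and -0.009 to 0.094 for Srxn1; and for aged against middle-aged -0.065 to 0.001 for Keap1. The cause was not tested for any of these changes.

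With 4 livers per age, single livers decided most calls, and Nqo1 at 29 to 91 raw reads allows only wide intervals.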
